A study of Mus musculus with 18 samples.

Results

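Cytochrome P450 genes were taken as every gene symbol in the deposited count tables built from Cyp, a family number, a subfamily letter and a member number, with pseudogenes left out. Of 25124 genes, 103 symbols had this form, 4 were pseudogenes and 99 remained, 98 enzyme genes and the antisense RNA Cyp4x1os. They fell into 16 families and 38 subfamilies on 14 chromosomes, the largest being Cyp2c with 15 members, Cyp2d, Cyp3a and Cyp4f with 9 each, Cyp4a with 8 and Cyp2j with 7. RNA had been sequenced from inguinal white (iWAT), epididymal white (eWAT) and brown adipose tissue (BAT) of male mice on a C57BL/6J background. WT mice were compared with C6KO mice, which lack caspase-6 in the whole body and came with their WT littermates from crosses of heterozygous parents. All animals of both genotypes received a high fat diet (HFD) that supplied 60% of calories as fat, over 12 weeks, begun at 10 to 14 weeks of age, so no lean group entered the comparison. Each depot and genotype had 3 libraries, 18 in all, described as biological replicates.

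P450 enzymes are haem proteins of the endoplasmic reticulum and the mitochondria that insert an oxygen atom into their substrate with electrons delivered by P450 reductase or by adrenodoxin. Families Cyp1 to Cyp3 are known mainly for clearing drugs, toxins and small molecules, Cyp4 enzymes hydroxylate fatty acids and eicosanoids at the end of the chain, and the higher families act on sterols, bile acids, steroid hormones, retinoids and vitamin D. The liver holds most of the body's P450, and many Cyp2c, Cyp2d, Cyp3a and Cyp4a genes are transcribed chiefly in hepatocytes, while adipose tissue is known for Cyp1b1, Cyp4b1 and Cyp2e1.

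The promoters below are shown because their genes carry the main contrasts described here. Cyp3a11, a steroid and drug oxidase typical of hepatocytes, and Cyp2e1, the ethanol- and acetone-inducible oxidase, behaved differently across the eWAT libraries, and Cyp2b10, the target by which the receptor CAR is usually recognised, was examined in BAT. Each stretch runs from 250 bases before to 50 bases after the RefSeq transcription start, on build GRCm38.p6. Capitals mark the TATA box letters TATAAA and the HNF4-type element CAAAGTCCA, both searched on both strands, and neither overlapped the other.
Cyp2e1: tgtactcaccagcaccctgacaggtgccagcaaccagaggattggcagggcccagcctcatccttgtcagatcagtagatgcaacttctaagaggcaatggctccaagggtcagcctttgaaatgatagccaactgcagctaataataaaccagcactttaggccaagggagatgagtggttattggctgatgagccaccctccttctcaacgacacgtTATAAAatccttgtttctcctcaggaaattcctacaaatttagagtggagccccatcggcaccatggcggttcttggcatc
Cyp3a11: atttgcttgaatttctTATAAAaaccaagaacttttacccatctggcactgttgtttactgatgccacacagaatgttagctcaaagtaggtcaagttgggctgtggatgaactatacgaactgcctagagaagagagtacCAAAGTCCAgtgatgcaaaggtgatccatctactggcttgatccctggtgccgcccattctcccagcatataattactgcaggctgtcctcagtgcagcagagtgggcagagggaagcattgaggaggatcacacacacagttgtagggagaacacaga
Cyp2b10: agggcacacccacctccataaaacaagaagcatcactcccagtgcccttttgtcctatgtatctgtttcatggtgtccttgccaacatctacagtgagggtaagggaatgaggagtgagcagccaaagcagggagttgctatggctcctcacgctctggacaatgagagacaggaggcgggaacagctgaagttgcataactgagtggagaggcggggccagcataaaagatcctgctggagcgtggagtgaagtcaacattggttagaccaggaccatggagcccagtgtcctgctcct
The Cyp2e1 stretch was chr7:140763569-140763868 on the plus strand, the Cyp3a11 stretch chr5:145879805-145880104 on the minus strand and the Cyp2b10 stretch chr7:25897408-25897707 on the plus strand. In Cyp2e1 the TATAAA began 31 bases before the start. In Cyp3a11 a CAAAGTCCA began 109 bases before the start, and a TATAAA lay at 234 bases before it. Cyp2b10 held neither run of letters in this window.

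RefSeq gave a promoter for 76 of the 99 genes, 86 entries in all. Among these, TATAAA was found in 34 entries (39.5%), against 13.6% of 32851 promoters of all genes, and CAAAGTCCA in 11 entries (12.8%), against 0.475%. The 11 genes with the HNF4-type letters were Cyp2c40, Cyp2c65, Cyp2c67, Cyp2c68, Cyp2c69, Cyp2c70, Cyp3a11, Cyp3a16, Cyp3a41a, Cyp3a41b and Cyp8b1. The dioxin receptor core GCGTG was present in 16 entries (18.6%, against 32.4% of all promoters), Cyp1b1 and Cyp2b10 included. These matches describe letters only. Cyp4a10, Cyp4a14, Cyp2d22 and Cyp2u1 were without an entry.

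Neighbouring genes of the family often shared sequence, which bears on their counts. Joining members less than 1 Mb apart gave blocks of 14 Cyp2c genes on chromosome 19, 13 genes of Cyp2a, Cyp2b, Cyp2f, Cyp2g, Cyp2s and Cyp2t on chromosome 7, 11 genes of Cyp4a, Cyp4b and Cyp4x on chromosome 4, 9 Cyp2d genes on chromosome 15, 8 Cyp4f genes on chromosome 17 and 8 Cyp3a genes on chromosome 5. The Cyp4a block (chromosome 4, 115106323 to 115647721 in GRCm38) held Cyp4a10 and Cyp4a14, the fatty acid omega-hydroxylases known as PPAR-alpha targets. Of the 50-base windows of their GENCODE M21 transcripts, 29.8% of those of Cyp4a10 also occurred in another P450 gene, mostly Cyp4a32, whereas 0% of those of Cyp4a14 and 0.27% of those of Cyp2e1 did. Reads of Cyp4a10 and Cyp4a32 (43.8%), and of Cyp4a12a and Cyp4a12b (48.9% and 49.4%), are therefore less certain in their assignment than those of Cyp4a14.

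Total counts per library ran from 16506034 to 19043523 for iWAT, 16717201 to 19139694 for eWAT, and 7803108 to 12428683 for BAT, so low transcripts were read least deeply in BAT. Casp6 stood at 11.2 to 23.1 CPM (counts scaled by the library total after TMM normalization) in the 9 WT libraries and at 3.07 to 7.98 in the 9 C6KO libraries, without overlap in any depot, and edgeR called the difference in eWAT (adjusted p = 0.0132) but not in iWAT (0.0751) or BAT (0.0671). The 8 adipocyte markers summed to 11046 CPM or more in every library, and the 7 brown adipocyte markers to 7944 CPM or more in BAT against most 124.6 in white depots. Of 6 markers of epididymal epithelium, 5 had no count in eWAT and the other reached 0.161 CPM in 1 library. Skeletal muscle markers ranged from 109.9 to 26176 CPM in BAT, with WT replicate 2 highest. In iWAT, C6KO replicate 3 stood apart from the other C6KO libraries, with 1348 CPM of macrophage markers against 410 and 446.6 and with 414 CPM of hepatocyte markers against 71.5 and 55.5.

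A count was recorded in at least 1 library for 75, 72 and 51 of the 99 genes in iWAT, eWAT and BAT, but most of these had a handful of reads. After the filter on low counts, 30, 29 and 22 genes could be tested in the 3 depots. The sex-steroid and adrenal enzymes Cyp19a1, Cyp11b1 and Cyp11b2 and the vitamin D 24-hydroxylase Cyp24a1 had no count in any library. Cyp7a1, the rate-limiting enzyme of bile acid synthesis, was read in white depots only, with at most 2 counts in every eWAT library and with 25 in 1 iWAT library of C6KO.

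In WT, a few enzymes accounted for most P450 transcript. Levels are given per length, as counts per kilobase of transcript in CPM (RPKM), and the first 3 genes in iWAT were Cyp4b1 at 81.2 ± 23.2 RPKM (SD, n = 3), Cyp2e1 at 75.9 ± 26.1 and Cyp4v3 at 60.9 ± 13.5. These 3, a fatty acid and xenobiotic hydroxylase, the ethanol-inducible oxidase and a fatty acid omega-hydroxylase, did not differ beyond their spread. Cyp2d22 at 29.1 ± 1.45 and the sterol 27-hydroxylase Cyp27a1 at 26.5 ± 3.22 followed, again within their spread of each other.

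In eWAT the order changed to Cyp4v3 (58.7 ± 8.12 RPKM), Cyp4b1 (47.3 ± 10.6), Cyp27a1 (40.6 ± 4.18) and Cyp1b1 (33.3 ± 3.8), with Cyp2e1 (19.7 ± 3.01) and Cyp2d22 (19.7 ± 0.861) at the same level. In BAT it was Cyp4b1 (95.5 ± 12.9), Cyp4v3 (53.5 ± 2.87), Cyp27a1 (49.3 ± 5.17), Cyp2d22 (38.0 ± 6.22) and Cyp2u1 (25.8 ± 3.85). Cyp4b1 stood clear of the rest in BAT only, and Cyp4v3 and Cyp27a1 overlapped there.

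**Figure D1:**
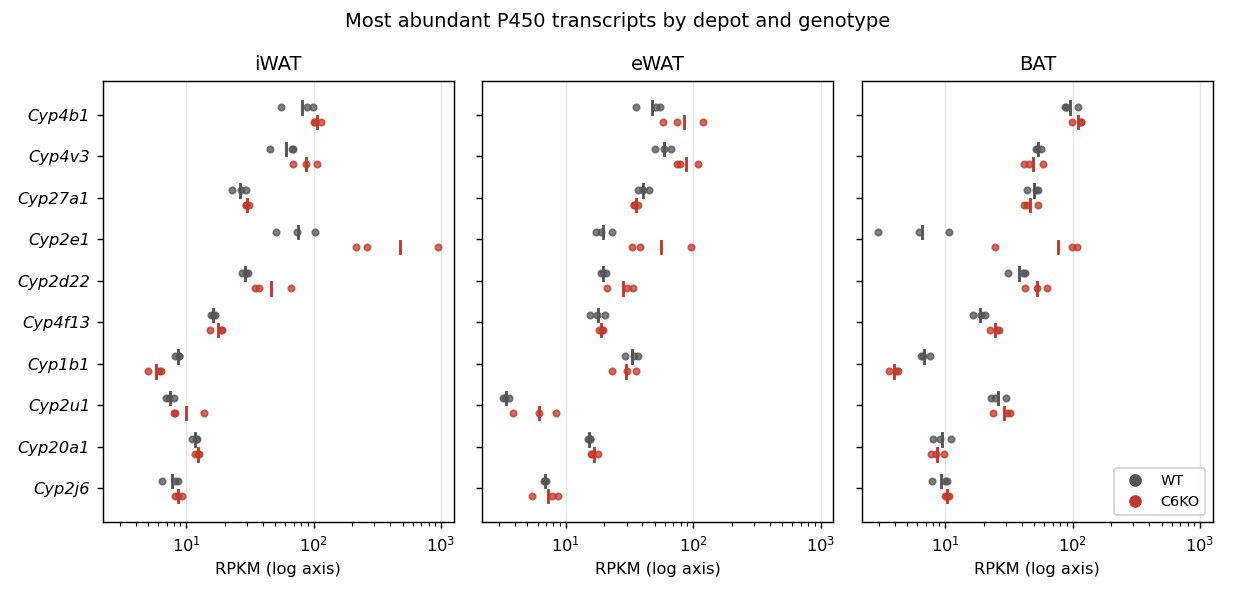
Level of the P450 transcripts that ranked among the first 8 in WT in any depot, in RPKM on a log axis, with 1 point per library, a bar at the mean of 3 and the genotypes in separate colours. Cyp2e1 was the gene whose C6KO points lay farthest from WT, up to a mean of 473 RPKM in iWAT, and Cyp1b1 was highest in eWAT.

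Depots were compared in WT. Of 29 P450 genes tested across the 9 WT libraries, 12 differed between eWAT and iWAT (4 higher and 8 lower in eWAT, against 28.3% of all genes tested), 10 between BAT and iWAT (3 higher and 7 lower in BAT, against 40.2%) and 14 between BAT and eWAT (5 higher and 9 lower, against 50.2%). A gene was called here and below at a Benjamini-Hochberg adjusted p below 0.05 in edgeR's quasi-likelihood test and a fold change of at least 1.5. By direction, the shares of all genes were 14.3% and 14%, 20% and 20.2%, and 25.2% and 25%. The transcript counted differed between the depot tables for 11 of the 99 genes, Cyp11a1 and Cyp2c23 among those called.

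Cyp2e1 counts were 3062, 1521 and 2319 in the WT iWAT libraries, 557, 555 and 694 in eWAT and 40, 211 and 109 in BAT. The 3 depots did not overlap. On the log2 scale eWAT fell below iWAT by 2.09 (SE 0.393) and BAT below iWAT by 3.39 (SE 0.425), with adjusted p of 0.00398 and 0.000269 by edgeR. Cyp1b1, a dioxin-inducible oxidase of oestrogens and retinoids found in stromal cells, was 1.81 higher in eWAT than in iWAT (SE 0.127, adjusted p = 1.08e-05 by edgeR) and lower in BAT than in eWAT by 4-fold (adjusted p = 3.92e-07 by edgeR). Cyp2u1, a long-chain fatty acid hydroxylase, was read 132, 138 and 144 times in eWAT, 287, 273 and 335 times in iWAT and 444, 598 and 700 times in the shallower BAT libraries, and rose by 1.93 over iWAT and by 3.20 over eWAT in BAT.

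Some genes of low level were near the floor in 1 or 2 depots, so that they entered the test through another depot and their fold changes are imprecise. Cyp2s1, a retinoid-metabolising enzyme of epithelia, had 220, 189 and 184 counts in eWAT against 17, 25 and 29 in iWAT, a log2 difference of 2.90 (SE 0.543). Cyp2f2, known from airway cells and hepatocytes, with iWAT counts of 23, 78 and 79, eWAT counts of 2, 9 and 8, and BAT counts of 3, 5 and 1, lay 3.38 lower in eWAT and 3.33 lower in BAT than in iWAT. Cyp2b10, with BAT counts of 24, 78 and 160, iWAT counts of 2, 4 and 11, and eWAT counts of 0, 3 and 8, was 4.83 higher in BAT than in iWAT and 5.59 higher than in eWAT. Cyp2s1, Cyp2f2 and Cyp2b10 were outside the rule for named genes and were chosen after their values were seen.

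The first comparison of genotypes concerns Cyp2e1, which was higher in C6KO in every depot. Its iWAT counts of 3062, 1521 and 2319 in WT stood against 6673, 30195 and 8122 in C6KO. In eWAT they were 557, 555 and 694 against 2812, 1243 and 1006, and in BAT 40, 211 and 109 against 363, 2105 and 1929. The genotypes did not overlap in any depot, but 1 C6KO library was far above the other 2 in iWAT (replicate 2) and in eWAT (replicate 1), and 1 far below in BAT (replicate 1). Mean levels were 75.9 RPKM in WT against 473 in C6KO for iWAT, 19.7 against 56.0 for eWAT, and 6.60 against 77.1 for BAT. In the means of C6KO iWAT, Cyp2e1 alone made up 55.6% of P450 RPKM, a share raised by replicate 2 (SD 407 on the mean of 473).

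The log2 fold changes of Cyp2e1 were 2.64 (SE 0.631), 1.5 (SE 0.465) and 3.53 (SE 0.818) in the same order of depots. None passed in edgeR's quasi-likelihood test, with adjusted p of 0.166, 0.191 and 0.175, whereas DESeq2 called all 3, with adjusted p of 0.0206, 0.0465 and 0.000337. Leaving out single libraries gave estimates from 1.65 to 2.99 for iWAT, 0.865 to 1.77 for eWAT, and 3.22 to 4.06 for BAT, and in iWAT the gene was called without C6KO replicate 3 (adjusted p = 0.0421). The genotype effect was not shown to differ between depots: BAT exceeded eWAT by 2.04 (SE 0.955, adjusted p = 0.451) and the other 2 contrasts gave adjusted p of 0.99 and 0.816.

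**Figure D2:**
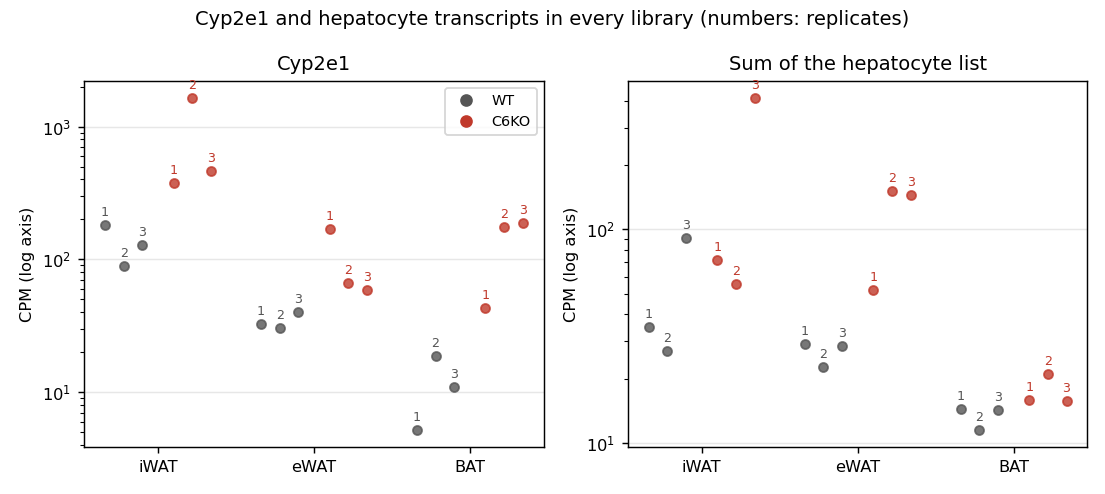
CPM of Cyp2e1 (left) and of 29 hepatocyte transcripts summed (right) in every library, on log axes, with the replicate number above each point. Cyp2e1 was highest in C6KO replicate 2 of iWAT and in C6KO replicate 1 of eWAT, while the hepatocyte sum was lowest in those libraries among the C6KO samples of their depot.

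Across the family, the C6KO effect on single genes was seldom past the threshold. In eWAT 1 of 29 P450 genes was called, Cyp4a10, which rose (0.746% of all genes tested were called, 0.537% higher and 0.208% lower). In iWAT 0 of 30 were called (0.0275% of all genes, 0.00688% higher and 0.0206% lower) and in BAT 0 of 22 (1.24%, 0.169% higher and 1.07% lower) by edgeR. At an unadjusted p under 0.05, edgeR gave 7 iWAT genes (16.5% of all genes), 12 eWAT genes (17.6%) and 8 BAT genes (13.2%). DESeq2, which tested without that filter, called 1 iWAT gene (2.68% of all 25124 genes), 8 eWAT genes (2.46%) and 3 BAT genes (2.17%).

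Estimates were above 0 for 21 of 30, 18 of 29 and 12 of 22 genes in the order iWAT, eWAT, BAT, with medians of 0.19, 0.12 and 0.09 beside 0.03, -0.01 and -0.03 for all genes tested. Without overlap between the genotypes, 11 genes were higher in C6KO eWAT and 2 lower (12% and 11.2% of all genes), 4 and 4 in iWAT (10.9% and 12.2%) and 6 and 3 in BAT (8.07% and 12.1%). Cyp4a10, Cyp3a11 and Cyp8b1 in eWAT, and Cyp4a10, Cyp4a14 and Cyp4f18 in BAT, had 10 counts or more in all 3 C6KO libraries and not in all 3 WT libraries, so they entered the test through C6KO. Cyp2r1 and Cyp2c70 in iWAT and Cyp2r1 in BAT had 10 or more in all WT libraries only. Cyp2r1 entered through WT. Cyp2c70 did not depend on WT alone, at 0.824, 0.587 and 1.61 CPM in WT iWAT against 2.86, 0.492 and 4.02 in C6KO.

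**Figure D3:**
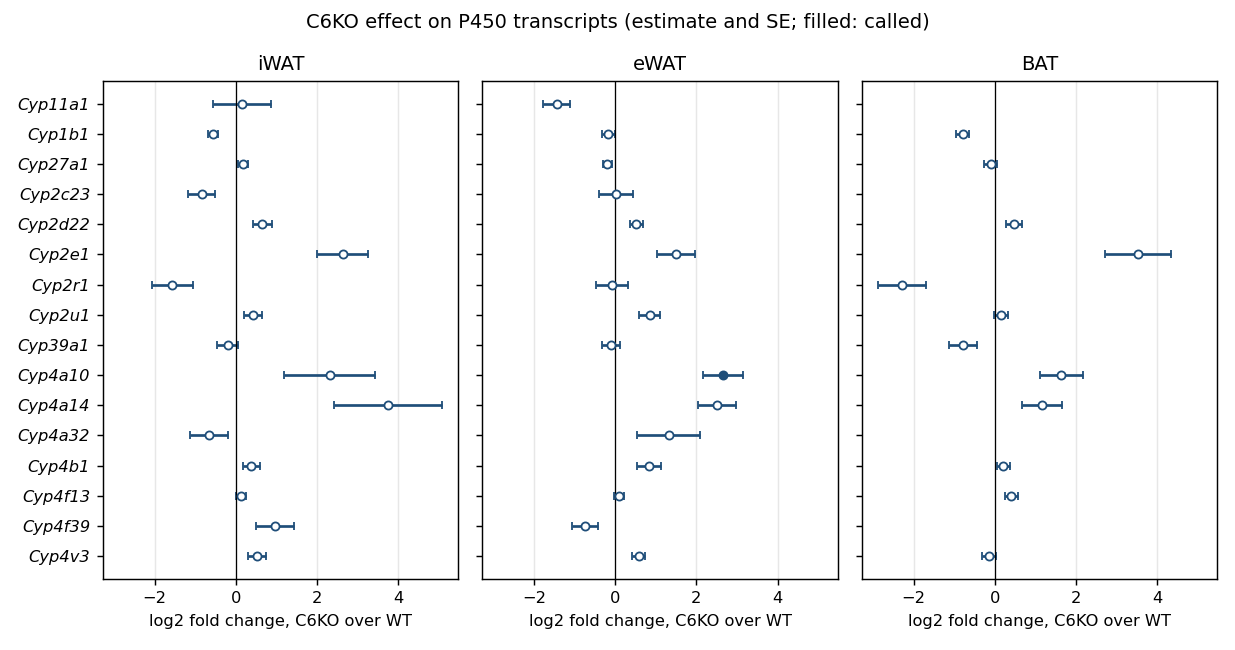
Log2 fold change of C6KO over WT with its SE for the named P450 genes in each depot, from edgeR with 3 libraries per genotype; a filled point marks a gene past both thresholds. Only Cyp4a10 in eWAT is filled, and the Cyp2e1 estimate lies above 0 in every depot.

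In the Cyp4a subfamily, 3 of 8 genes reached the filter in white fat and 2 in BAT. Cyp4a10 counts in eWAT were 11, 7 and 10 in WT against 26, 80 and 77 in C6KO. Cyp4a14 counts were 28, 11 and 22 in WT against 55, 147 and 156 in C6KO. Both genes were separated between genotypes, and C6KO replicate 1 was the lowest of its group for both. Cyp4a10 was 2.67 higher on the log2 scale (SE 0.492, adjusted p = 0.0468 by edgeR's quasi-likelihood test) and Cyp4a14 2.52 higher (SE 0.471, adjusted p = 0.0527).

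The Cyp4a10 call was a narrow one. It was kept without C6KO replicate 1 (adjusted p = 0.0422) and lost without WT replicate 1, 2 or 3 (0.138, 0.191 and 0.144), C6KO replicate 2 (0.0587) or C6KO replicate 3 (0.069), with the estimate between 2.44 and 3.02. DESeq2 gave Cyp4a10 and Cyp4a14 adjusted p of 0.000205 and 2.13e-05. Cyp4a32 had 11, 6 and 1 counts in WT against 21, 6 and 18 in C6KO, which overlapped, and the 8 genes summed to 50, 24 and 34 counts in WT against 103, 234 and 262 in C6KO.

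In iWAT the Cyp4a genes rested on 1 library. Cyp4a10 was read 2, 6 and 18 times in WT against 16, 7 and 109 times in C6KO, and Cyp4a14 3, 3 and 12 times against 37, 5 and 209 times. C6KO replicate 3 held most of the reads, and the genotypes overlapped for both genes. Estimates of 2.31 (SE 1.13) and 3.75 (SE 1.34) had adjusted p of 0.357 and 0.247. In BAT Cyp4a10 had 7, 3 and 6 counts against 13, 22 and 21, and Cyp4a14 7, 11 and 9 against 11, 40 and 16, both without a call (adjusted p of 0.201 and 0.349). Cyp4a12a, Cyp4a12b, Cyp4a29, Cyp4a30b and Cyp4a31 were below the filter in every depot's genotype test.

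Whether these eWAT differences went with hepatocyte transcripts was examined with 29 hepatocyte genes, Alb, Ttr, Apob and Fga among them, none of them a P450. Their summed level in eWAT was 29.0, 22.7 and 28.3 CPM in WT against 51.9, 151 and 145 CPM in C6KO, so replicates 2 and 3 of C6KO stood well above replicate 1. All 21 genes of the list that could be tested had a higher estimate in C6KO eWAT, 16 of them at an unadjusted p under 0.05, and Apob, Fga, Serpina1d and Ttr were called. In iWAT all 19 tested had a higher estimate, 2 at an unadjusted p under 0.05 and 0 called by edgeR. Every one of the 29 genes had a count somewhere in eWAT, and the albumin transcript alone reached 17.5, 50.1 and 54.8 CPM in C6KO. In BAT only 2 of the genes could be tested and neither passed.

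Cyp4a10, Cyp4a14 and Cyp3a11 were lowest in the C6KO library with the lowest sum, replicate 1, though replicate 3 exceeded replicate 2 for these genes and the reverse held for the sum. Per 100 CPM of hepatocyte transcript, Cyp4a10 was 2.24, 1.69 and 2.06 CPM in WT eWAT against 3.01, 2.85 and 3.08 in C6KO. For Cyp4a14 the ratio was 5.70, 2.65 and 4.53 in WT against 6.36, 5.24 and 6.25 in C6KO. The Cyp4a10 ratio was higher in C6KO without overlap, and the Cyp4a14 ratios overlapped. These ratios depend on the list. In WT BAT, where Alb was at most 0.2 CPM, the list still summed to 11.5 to 14.3 CPM. A similar background in WT eWAT, not measured here, would lower every WT ratio to the sum. Alb was 6.08, 2.46 and 7.41 CPM in WT eWAT, a smaller part of the sum than in C6KO. The Cyp4a10 separation thus holds for the summed list only. Cyp4a10 itself was 0.649, 0.382 and 0.583 CPM in WT eWAT against 1.56, 4.29 and 4.47 in C6KO, where Alb was 17.5, 50.1 and 54.8. Relative to Alb the genotypes overlapped, and ratios to Alb were not tested. Within C6KO the ratios of Cyp4a10 and Cyp4a14 to the summed list varied by less than their levels, which spanned 2.86-fold and 2.74-fold. Cyp3a11, with 7, 0 and 5 counts in WT against 14, 28 and 30 in C6KO (log2 fold change 2.52, SE 0.766, adjusted p = 0.127), gave ratios of 1.43, 0 and 1.03 against 1.62, 0.997 and 1.20. Cyp3a11 was chosen after its values were seen.

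Cyp2e1 was highest in C6KO replicate 1 of eWAT. Its ratio was 113, 134 and 143 CPM per 100 CPM of hepatocyte transcript in WT eWAT against 325, 44.3 and 40.3 in C6KO. The C6KO library with the least hepatocyte transcript, replicate 1, thus had the most Cyp2e1. Likewise in iWAT, where the hepatocyte sum was 71.5, 55.5 and 414 CPM in C6KO, the highest Cyp2e1 level, 1649 CPM, lay in replicate 2. There the ratio was 111 CPM per 100 CPM of hepatocyte transcript in replicate 3 and 2969 in replicate 2. In BAT the list summed to 14.3, 11.5 and 14.3 CPM in WT against 15.8, 21 and 15.8 CPM in C6KO, separate but close. Alb was only 0, 0.176 and 0.2 CPM in WT BAT and 0, 3.23 and 1.75 in C6KO. The BAT sum is therefore a poor measure of hepatocyte transcript. Per 100 CPM of it, Cyp2e1 was 36, 162 and 76.2 CPM against 271, 829 and 1191, which cannot be read as a hepatocyte ratio.

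Counting all 29 tested genes in C6KO eWAT, 8 were lowest in replicate 1, as the hepatocyte sum was, and 13 were highest there. The same count over all genes was not taken, so these numbers do not show whether P450 genes differed from other genes in this. The 8 were Cyp2r1, Cyp2s1, Cyp39a1, Cyp3a11, Cyp4a10, Cyp4a14, Cyp4f16 and Cyp4f18, some of which varied little (Cyp2s1 at 10.3, 10.6 and 11.2 CPM). The 13 included Cyp2e1, Cyp4v3, Cyp2d22, Cyp2u1, Cyp4f17, Cyp4a32 and Cyp2c70. Cyp2c70, which has the HNF4-type letters, had 3.78, 0.376 and 2.67 CPM in C6KO, lowest where the sum was highest. Cyp8b1, with the same letters, had 15, 15 and 34 counts in C6KO (0.901, 0.805 and 1.97 CPM), so replicates 1 and 2 were level. The 70 genes below the filter summed to 48, 49 and 74 counts in WT against 90, 227 and 168 in C6KO, with replicate 2 of C6KO highest. Cyp2d9, a steroid 16-alpha-hydroxylase of male mouse liver, was among these with 0, 0 and 1 counts in WT against 9, 36 and 15 in C6KO. Against a floor of 3 counts per library this is at least 6.38-fold higher, and at least 4.04-fold without C6KO replicate 2. Cyp2d9 was outside the rule for named genes and was not tested. The same floor gave at least 2.32-fold for Cyp3a13 and 1.53-fold for Cyp2j5. In iWAT the genes below the filter summed to 75, 72 and 170 counts in WT against 105, 55 and 436 in C6KO, again highest where the hepatocyte sum was highest.

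Less RNA per cell and fewer cells of a type cannot be told apart in these bulk samples, and the part of hepatocyte transcript in the Cyp4a and Cyp3a differences was not tested beyond these ratios.

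**Figure D4:**
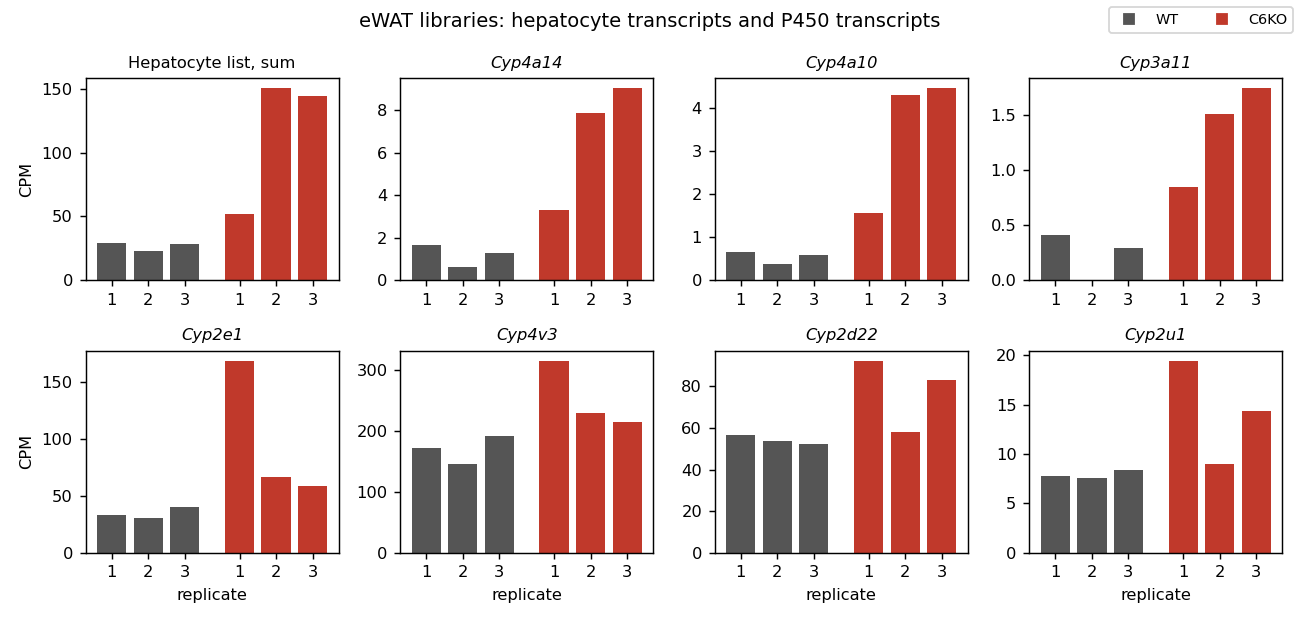
CPM in each eWAT library for the hepatocyte list summed and for 7 P450 genes, with bars from 0 and WT and C6KO in separate colours. In the upper row the C6KO bars are lowest in replicate 1, and in the lower row, from Cyp2e1 to Cyp2u1, they are highest there. The genes shown are examples, and not every tested gene took either order.

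Summed over their members, the Cyp3a and Cyp2c subfamilies had few reads. The 9 Cyp3a genes summed to 8, 1 and 11 counts in WT eWAT against 28, 46 and 44 in C6KO, and to 14, 2 and 39 in WT iWAT against 25, 10 and 253 in C6KO, with at most 1 count in any BAT library. The 15 Cyp2c genes summed to 70, 39 and 64 counts in WT eWAT against 121, 77 and 85, and to 62, 71 and 125 in WT iWAT against 115, 48 and 165. Cyp3a sums were separate between genotypes in eWAT and overlapped in iWAT, where 1 C6KO library held most reads, and the Cyp2c sums met at 4.13 CPM in eWAT and overlapped in iWAT. The 9 Cyp4f genes, at 1200, 1422 and 1411 counts in WT eWAT against 1414, 1473 and 1446, overlapped.

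Several abundant P450 genes had higher estimates in C6KO eWAT, while 2 of 5 tested Cyp4f genes had higher and 3 lower estimates. Cyp4v3 counts were 2902, 2653 and 3287 in WT against 5237, 4255 and 3698 in C6KO, without overlap, for a log2 difference of 0.58 (SE 0.164, adjusted p = 0.113). Cyp4b1 had 1649, 1229 and 1808 against 2358, 2048 and 3930 counts (0.83, SE 0.299, adjusted p = 0.221), and Cyp2u1 had 132, 138 and 144 against 324, 168 and 248 (0.85, SE 0.257, adjusted p = 0.125). The 3 genes kept the genotypes apart without passing the adjusted threshold in edgeR, and DESeq2 called Cyp4b1 and Cyp2u1. Cyp2u1 lies on chromosome 3, 1.37 Mb from Casp6. Cyp2d22, of the drug-metabolising Cyp2d subfamily, was read 963, 984 and 895 times against 1539, 1082 and 1436 times (0.52, adjusted p = 0.132).

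The adipocyte marker list was also higher in C6KO eWAT. The sum was lowest in replicate 3, where Cyp4v3 was lowest and Cyp4b1 highest (228 CPM). Cyp2d22 and Cyp2u1 were lowest in replicate 2, where the sum was close to that of replicate 1. The 8 markers, all tested, summed to 12975, 11046 and 11870 CPM in WT eWAT against 19627, 19727 and 15575 CPM in C6KO. All 8 estimates were higher and 2 were called. In iWAT the sum was 26264 to 30070 CPM in WT against 36072 to 38310 CPM in C6KO, and in BAT the genotypes overlapped. The part of adipocyte share in the eWAT differences of Cyp4v3, Cyp4b1, Cyp2u1 and Cyp2d22 was not tested.

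In iWAT Cyp4v3 had 3397, 2226 and 3527 counts in WT against 5489, 3608 and 4451 in C6KO, and Cyp2d22 1420, 1293 and 1463 against 3241, 1885 and 1687. In CPM Cyp4v3 overlapped between genotypes (200 in 1 WT library against 197 in 1 C6KO library), and Cyp2d22 did not. The differences were 0.52 (SE 0.213) and 0.66 (SE 0.234), with adjusted p of 0.275 and 0.234. In BAT Cyp4v3 overlapped (1152, 1708 and 1640 against 1012, 1585 and 1745 counts), and Cyp4f13, of the fatty acid-hydroxylating Cyp4f subfamily, had 267, 317 and 324 against 376, 461 and 443 counts (0.41, SE 0.155, adjusted p = 0.296). Cyp27a1 estimates of 0.18, -0.20 and -0.10 in the 3 depots were all without a call.

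Genes with lower estimates in C6KO were fewer. Cyp1b1 counts in BAT were 301, 375 and 342 in WT against 184, 224 and 216 in C6KO, and in iWAT 766, 769 and 752 against 458, 574 and 576. Both depots were without overlap and tight within each genotype. The differences were -0.79 (SE 0.157, adjusted p = 0.0516) in BAT and -0.56 (SE 0.131, adjusted p = 0.154) in iWAT, and DESeq2 called the first. In eWAT, where Cyp1b1 was most abundant, counts of 2974, 3466 and 2585 in WT against 3052, 2231 and 2680 in C6KO overlapped.

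The fibroblast and progenitor marker list was lower in C6KO in all depots. Its 8 genes summed to 5960 to 6017 CPM in WT iWAT against 2643 to 4560 in C6KO, and to 1213 to 2081 in WT BAT against 720 to 894 in C6KO, with 8 of 8 estimates lower in each and 2 called in BAT. In eWAT, where Cyp1b1 overlapped, the sums were 7808 to 9720 against 6031 to 7518 CPM. The part of these cells in the Cyp1b1 values was not tested.

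Cyp2r1, a vitamin D 25-hydroxylase, had 44, 30 and 27 counts in WT iWAT against 8, 9 and 18 in C6KO, and 14, 18 and 10 in WT BAT against 1, 4 and 4. Neither depot overlapped. The estimates were -1.57 (SE 0.506, adjusted p = 0.201) and -2.29 (SE 0.589, adjusted p = 0.114). In eWAT its 30, 71 and 42 counts in WT against 26, 63 and 47 in C6KO overlapped, and the genotype effect in BAT against eWAT differed by -2.24 (SE 0.725, adjusted p = 0.208). Cyp2c23, an arachidonic acid epoxygenase, had 46, 56 and 70 counts in WT iWAT against 39, 30 and 30 in C6KO (-0.84, SE 0.332, adjusted p = 0.261).

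Cyp11a1, the side-chain cleavage enzyme that starts steroid synthesis, was separated in eWAT, with 51, 56 and 51 counts in WT against 19, 24 and 15 in C6KO. The log2 difference was -1.45 (SE 0.324, adjusted p = 0.0635), DESeq2 called it, and leaving out single libraries kept it between -1.57 and -1.30. Steroidogenic cell markers overlapped, at 18.1 to 21.5 CPM in WT against 15.1 to 24.6 in C6KO, and of 5 such markers Hsd3b1 and Hsd3b6 were at 0. Mast cell markers, a list added after the values were seen, were 371, 343 and 252 CPM in WT eWAT against 121, 165 and 186 in C6KO, with 8 of 8 estimates lower and 3 called. The part of mast cells in the Cyp11a1 values was not tested. Cyp4f39, an acylceramide hydroxylase of skin, had 82, 69 and 66 counts in WT eWAT against 42, 61 and 27 in C6KO (-0.75, SE 0.321, adjusted p = 0.262), and in iWAT its estimate was 0.96 (SE 0.470).

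In BAT the gene with the next highest estimate after Cyp2e1 was Cyp2b10, chosen after its values were seen. Its counts were 24, 78 and 160 in WT against 187, 616 and 1249 in C6KO, so the genotypes were separate while each spanned a wide range. The log2 difference was 2.89 (SE 0.948, adjusted p = 0.322) by edgeR, and DESeq2 called it (adjusted p = 0.041). All 5 Cyp2b genes together had 20, 23 and 28 counts in the WT libraries of iWAT, and 5, 6 and 15 in those of eWAT. Nr1i3, which encodes CAR, had 18, 32 and 22 counts in WT BAT against 29, 22 and 25 in C6KO, which overlapped.

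Muscle transcript varied widely among the BAT libraries of both genotypes. Muscle markers summed to 109.9, 26176 and 1199 CPM in WT against 4257, 301 and 5399 CPM in C6KO. Without WT replicate 2, the library richest in them, Cyp2e1 was 4.06 higher (adjusted p = 0.257) and Cyp1b1 0.83 lower on the log2 scale (-0.83, adjusted p = 0.0584). Macrophage markers were lower in C6KO in all depots, with sums in BAT of 684 to 872 CPM in WT against 213 to 337 in C6KO, and of 6927 to 8499 against 4729 to 5711 CPM in eWAT. Cyp39a1, an oxysterol 7-alpha-hydroxylase, had 41, 76 and 50 counts in WT BAT against 35, 25 and 39 in C6KO (-0.77, SE 0.345, adjusted p = 0.380).

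No P450 gene was shown to respond differently to C6KO in different depots. Of 35 genes tested over the 18 libraries, 0 were called by edgeR in eWAT against iWAT (0% of all genes), BAT against iWAT (0.183%) and BAT against eWAT (0.536%). DESeq2 also called 0 P450 genes, beside 0.0557%, 0.653% and 1.36% of all genes in the same order. At an unadjusted p under 0.05 the counts were 3, 3 and 4 by edgeR, beside 5.48%, 9.93% and 11.2% of all genes. The smallest adjusted p in each contrast belonged to Cyp4f39 (0.89), Cyp4f39 (0.238) and Cyp2r1 (0.208).

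The list of partners and regulators of P450 enzymes summed to 2876 to 2965 CPM in WT iWAT against 3446 to 4094 in C6KO, and to 2291 to 2452 in WT eWAT against 2534 to 2897 in C6KO, without overlap. Of 25 genes listed, iWAT allowed 22 to be tested (11 estimates higher and 11 lower), eWAT 22 (14 and 8), BAT 20 (12 and 8). By edgeR 0 were called in iWAT and in eWAT, 8 and 7 having an unadjusted p under 0.05 (16.5% and 17.6% of all genes did), and 1 in BAT, thromboxane synthase Tbxas1, a haem enzyme of the P450 superfamily that is typical of macrophages. Tbxas1 fell by 1.85 on the log2 scale in BAT (SE 0.311, adjusted p = 0.0282). Por, the electron donor of microsomal P450s, had 6126, 6603 and 7286 counts in WT iWAT against 10469, 13492 and 9345 in C6KO, without overlap (0.68, SE 0.158, adjusted p = 0.154), and 3724, 3752 and 3947 against 4510, 5574 and 4614 in eWAT (0.35, adjusted p = 0.113). Hnf4a, which encodes the hepatocyte factor HNF4, had 0, 0 and 2 counts in WT eWAT against 6, 33 and 16 in C6KO.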

How the data were processed

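Poly(A) RNA libraries were sequenced on an Illumina NextSeq system, and the authors aligned reads with STAR at default settings to mm10 and counted exon reads with HOMER. The deposited values were raw counts per gene, condensed to 1 transcript a gene. Whether counting used strand is not given in the sources used here, and 11 P450 genes were counted on different transcripts in the 3 depot tables. Deposited tables were matched to samples by depot and column name.

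From these counts, CPM used TMM-scaled library sizes and RPKM the same values divided by the deposited transcript length. Each depot was fitted alone (3 C6KO against 3 WT) with edgeR 4.0.16 (filterByExpr, TMM, robust quasi-likelihood F-test, Benjamini-Hochberg over all genes tested) in R 4.3.3. WT depot contrasts used 9 libraries and interactions 18. A call needed adjusted p under 0.05 and a fold change of 1.5. DESeq2 1.42.0, other scalings and filters, a replicate block and left-out libraries were alternatives. The code was tested on simulated data. P-values cover the spread between 3 libraries a group, and the number of counts limits low transcripts.

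Genes were named by rule: Cyp2e1, all Cyp4a genes, called genes, and, in each depot, the 5 most abundant in WT and the 3 with the smallest p in each direction. The P450 genes and lists were chosen with earlier results of these data known.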

Additional observations from a re-analysis of the deposited data

How the results depend on the processing

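Counts of P450 genes called between genotypes were small and moved with the tool. In iWAT the count of 0 became 1 by DESeq2 and lay between 0 and 3 when single libraries were left out, with 3 reached without C6KO replicate 3 (Cyp1b1, Cyp2e1 and Cyp2r1), where 8.64% of all genes were called. In eWAT the count of 1 became 8 by DESeq2, 4 with no filter on low counts (1.64% of all genes), 0 with scaling by total counts only (Cyp4a10 adjusted p = 0.0501), 0 with at least 10 counts in every library, which left Cyp4a10 untested, 0 with all 18 libraries in one fit (Cyp4a10 adjusted p = 0.252), 0 to 2 with single libraries left out, and 5 without C6KO replicates 2 and 3 (5.81% of all genes). That last setting was chosen after the values were seen and rests on 1 C6KO library, assumed to vary like the others, which was already the highest for those 5 genes (Cyp2d22, Cyp2e1, Cyp2u1, Cyp4f17 and Cyp4v3). In BAT the count of 0 became 3 by DESeq2 and 4 with all 18 libraries in one fit (Cyp1b1, Cyp2b10, Cyp2e1 and Cyp2r1, 3.31% of all genes), and stayed at 0 with single libraries left out. The cause of these moves was not tested beyond the change of tested genes and samples that each setting makes.

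Between WT depots, requiring at least 10 counts in every library gave 7 genes for eWAT against iWAT (28.8% of all genes) and 8 for BAT against eWAT (50.4%). Leaving out single libraries gave 10 to 15 (22.3% to 31.7% of all genes), 13 to 15 (45.4% to 52.8%) and, for BAT against iWAT, 8 to 14 (35.1% to 43.1%). Scaling by total counts moved the median of all genes to 0.15 (eWAT against iWAT), -0.13 (BAT against iWAT) and -0.26 (BAT against eWAT) on the log2 scale.

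The correlation of deviations of same-numbered WT and C6KO libraries averaged 0.0265, 0.0966 and -0.387 in the order iWAT, eWAT, BAT. With 3 libraries a group, these averages cannot settle whether replicate numbers pair the genotypes. The main genotype tests treated the libraries as unpaired. Between WT depots the correlation averaged 0.0923 for same-numbered and -0.046 for other-numbered libraries. Whether the same mice gave the 3 depots is not stated in the sources used here, and the main depot contrasts treated the libraries as independent. With a replicate block, the genotype test called 0 iWAT genes (0.427% of all genes), 2 eWAT genes (Cyp4a10 and Cyp4b1, against 2.78%) and 2 BAT genes (Cyp2b10 and Cyp2e1, against 0.831%). No direction reversed under any alternative. Of the fold changes recomputed, 273 kept their side of the threshold, 18 passed it newly and 8 lost it.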
